A study of Takifugu rubripes with 9 samples.

Results

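The miR-30 family was described in small RNA libraries of adult wild type torafugu (*Takifugu rubripes*). All sequences recorded under mir-30 with or without a letter were taken, whatever the type of match, and miR-301 was left out. The rule gave 7 of 377 miRNA names, mir-30a, mir-30b, mir-30c, mir-30d, mir-30e, mir-30f and mir-30g, written miR-30a to miR-30g below, with 195 of 8194 distinct sequences and 80043 of 5232809 reads. miR-30b, miR-30c, miR-30d and miR-30e carried almost all of them, and the reads recorded as miR-30a, miR-30f and miR-30g were few.

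The study sequenced small RNAs of somatic tissues and gonads on a SOLiD system to profile miRNAs by tissue. Slow muscle, heart, liver, intestine, brain, eye, ovary and testis were analysed here, and fast muscle was not analysed here. All groups shared the wild type genotype and adult stage, the labels give no treatment, and the tissues came from a pair of individuals, with 1 library per tissue. There was therefore no replicate check, and the intervals given throughout are 95% intervals that cover counting error of the reads only. They treat reads as independent. The libraries were amplified and reads carried no molecular identifiers, so reads need not be independent molecules and the intervals may be too narrow.

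The miR-30 family is a conserved group of vertebrate miRNAs. Each precursor hairpin can give a mature miRNA from its 5′ arm (5p) and another from its 3′ arm (3p), and an arm loaded into an Argonaute protein recognizes target mRNAs mainly through its seed, the bases 2 to 8 from the 5′ end. In mammals, miR-30 members are known as abundant miRNAs of heart and skeletal muscle, kidney and fat, and have been linked to epithelial identity, cardiac remodelling and autophagy.

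Reads were grouped by sequence form, the most abundant sequence of an arm together with the shorter, longer and shifted reads that overlap it without mismatch. The 10 forms with at least 100 reads held 99.9% of the family reads. Their leading sequences are shown because the seed groups, the arm comparison and the naming of the members rest on them. The first 5 are the 5p forms, and capitals mark the seed, as in every sequence given here.
miR-30b-5p: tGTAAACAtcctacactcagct
miR-30c-5p form A: tGTAAACAtcctacactctcagc
miR-30c-5p form B: tGTAAACAtcctacactctcgg
miR-30d-5p: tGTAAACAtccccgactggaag
miR-30e-5p: tGTAAACAtccttgactggaagc

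The remaining 5 forms come from the other arm. Those of miR-30e were annotated as mature 3p sequences, whereas those of miR-30b, miR-30c and miR-30d matched only a precursor and are called opposite-arm forms here.
miR-30e-3p form A: cTTTCAGTcggatgtttacag
miR-30e-3p form B: cTTTCAGTcggatgtttgcag
miR-30d opposite-arm form: cTTTCAGTctgatgtttaccac
miR-30c opposite-arm form: cCGGGGGTgggactgtttgcact
miR-30b opposite-arm form: cTGAGAGAaggttgtttacttg

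All 5 of the 5p forms shared the seed GTAAACA and the first 11 bases, tGTAAACAtcc, and together they held 74879 reads, or 93.5% of the family. A second seed, TTTCAGT, was common to both miR-30e-3p forms and the miR-30d opposite-arm form and held 5.61%. The seeds CGGGGGT and TGAGAGA each belonged to 1 form, the opposite arms of miR-30c and miR-30b, with 0.548% and 0.161%. On the other arm, the seed was thus shared by miR-30d and miR-30e and differed from those of miR-30b and miR-30c.

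With positions counted from 1 at the 5′ end, miR-30d-5p and miR-30e-5p differed at 2 of 22 positions, by C12T and C13T from the former to the latter. Both pairs of forms A and B differed by 1 base, A21G in miR-30c-5p and A18G in miR-30e-3p. Form A of miR-30c-5p was recorded under a zebrafish entry and form B under a torafugu entry. For miR-30e-3p, form A was recorded under a human entry and form B under a zebrafish entry. Whether the forms come from separate genes was not tested.

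Computed pairing of each 5p form with its opposite arm gave 20 base pairs for miR-30e with either 3p form, 18 for miR-30d, 16 for miR-30b, and 18 and 20 for forms A and B of miR-30c. The RefSeq annotation of torafugu (fTakRub1.2) lists mir30b, mir30c and mir30d, with mir30d and mir30b as direct neighbours on the same chromosome. Its coordinates were not used here because the sources name no genome build for the files.

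The libraries held between 54540 annotated reads in testis and 1207961 in intestine. The marker miRNAs of the labelled tissues were highest where the labels place them. The liver miRNA miR-122 reached 55740 RPM (reads scaled to 1000000 reads of 18–25 nt) in liver, the neuronal miR-124 110682 RPM in eye and 77630 RPM in brain, the muscle miRNA miR-1 74067 RPM in slow muscle against 42778 RPM in heart, the intestinal miR-192 124970 RPM in intestine, and the gonadal miR-202 1979 RPM in ovary and 124 RPM in testis. The slow muscle library also held 4413 RPM of miR-192, against 44.0 RPM in heart, and the part of such reads in the results below was not tested.

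Reads of the family were, in RPM, most abundant in slow muscle and least abundant in the gonads. The level in slow muscle was 11760 RPM (11609–11913). It was 7756 RPM in liver (7601–7914) and 6373 RPM in heart (6276–6472). The remaining libraries held 4186 RPM in intestine (4118–4255), 4103 RPM in brain (4027–4180), 1922 RPM in eye (1851–1996), 597 RPM in ovary (576–620) and 590 RPM in testis (558–624). The levels spanned 19.9-fold. Intestine exceeded brain by 1.02-fold (0.995–1.05) and ovary exceeded testis by 1.01-fold (0.947–1.08), so neither pair differed beyond counting error, whereas the ratio intervals of all other neighbours in this order lay above 1. In these bulk tissues, fewer cells that express a miRNA and less of it per cell cannot be told apart. The RPM denominator also counts reads that were not annotated as miRNAs. The paper identified a smaller part of the small RNA reads as miRNAs in the gonads than in somatic tissue, and the smallest part in testis. The shares of annotated reads given next leave the other reads out. How much of the low gonad RPM comes from this denominator was not tested.

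As a share of annotated reads the order was different. The family made up 3.12% of annotated reads in slow muscle, 2.29% in testis, 2.14% in liver, 1.82% in heart, 1.18% in both intestine and brain, 0.581% in eye and 0.529% in ovary. When reads were summed by miRNA number, miR-30 ranked 9 of 144 numbers in slow muscle, 10 of 116 in testis, 11 of 139 in liver and 27 of 141 in eye. Testis thus lay lowest in RPM but among the highest as a share of its annotated reads, which were the fewest of all libraries.

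The 4 abundant 5p arms, which carry the same seed, differed in their tissue pattern. miR-30b-5p measured 4115 RPM in slow muscle, 2198 RPM in liver and 1407 RPM in heart, then 1116 in brain, 1092 in intestine, 574 in eye, 117 in testis and 101 in ovary. miR-30c-5p measured 3026 RPM in slow muscle, 2373 in heart, 1906 in liver, 1352 in brain, 742 in intestine, 586 in eye, 213 in ovary and 51.5 in testis. Both were highest in slow muscle and lowest in the gonads, with eye as the lowest somatic tissue.

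miR-30e-5p was also highest in slow muscle and lowest in testis. Slow muscle had 2232 RPM, liver 1784 and heart 1344, followed by 912 in brain, 471 in eye, 420 in intestine, 114 in ovary and 38.3 in testis. miR-30d-5p measured 1933 RPM in slow muscle, 1492 in intestine, 1474 in liver, 690 in heart, 629 in brain, 359 in testis, 96.2 in ovary and 83.6 in eye. It was thus the only one of these 4 arms with its lowest value in eye. Ovary exceeded eye by 1.15-fold (0.937–1.42), which is within counting error. Only miR-30d-5p had testis above ovary by more than counting error in RPM.

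The 3p arm was much rarer. miR-30e-3p, the only 3p arm at 100 RPM or more in any library, measured 378 RPM in heart, 269 in slow muscle, 259 in intestine, 200 in liver, 158 in eye, 50.8 in ovary, 22.5 in brain and 9.46 in testis. Brain therefore stood with the gonads for this arm although its miR-30e-5p level lay between those of heart and eye.

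**Figure D1:**
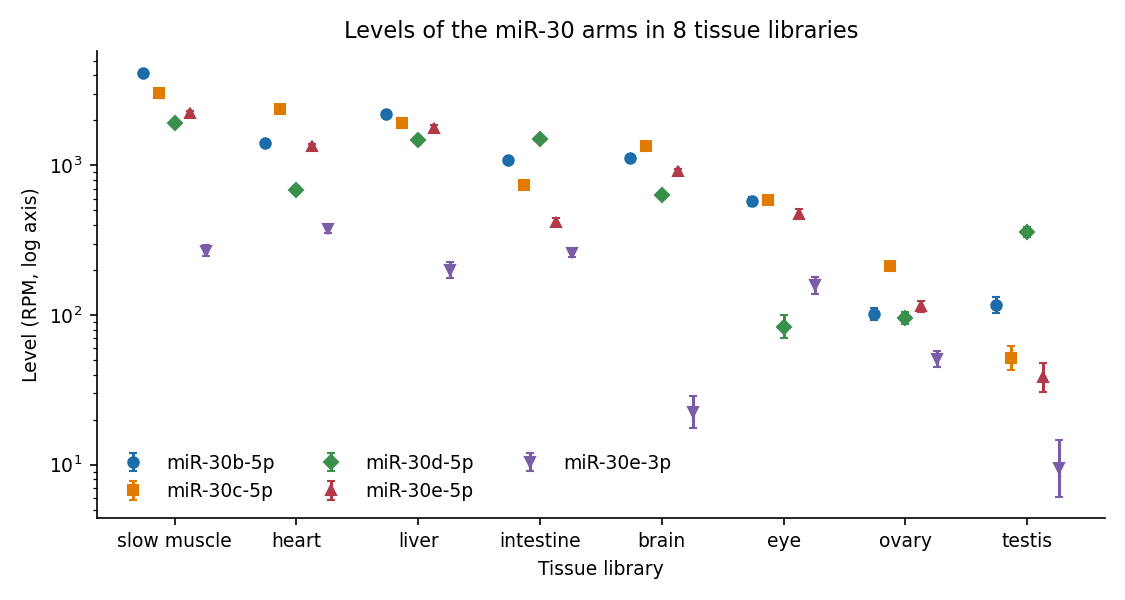
Level of each miR-30 arm (RPM, log axis) in the 8 tissue libraries. Points are single libraries and bars are 95% Wilson intervals. The 5p arms fall between slow muscle (1933–4115 RPM) and testis (38.3–359 RPM), miR-30d-5p dips to 83.6 RPM in eye, and miR-30e-3p drops to 22.5 RPM in brain.

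Across the 8 libraries, the 5p arms of miR-30c and miR-30e were the most alike on the log2(RPM + 1) scale (Pearson's r = 0.990), and miR-30d-5p was less like miR-30c-5p (r = 0.581) and miR-30e-5p (r = 0.587). The correlation of miR-30e-3p with miR-30e-5p was 0.724 in RPM and 0.131 per annotated read. Each r is over 8 tissues that share library depth between the compared arms, and is a description.

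The make-up of the family also changed with tissue. miR-30d made up 62.5% of the family reads in testis (59.8–65.1) and 37.5% in intestine (36.7–38.2), but 11.9% in heart and 4.95% in eye. It was the leading member in testis and intestine. miR-30b led in slow muscle with 35.1% (34.5–35.7) and in liver with 28.8% (27.9–29.7), and its share was lowest in ovary, at 17.1%.

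miR-30c led in heart with 38.0% (37.2–38.7), in ovary with 36.6% (34.8–38.4) and in brain with 33.3% (32.5–34.2), and made up 8.81% in testis. miR-30e led in eye with 33.0% (31.3–34.8), where miR-30c held 31.2% and the intervals overlapped, and made up 8.25% in testis. No member led in more than 3 of the 8 libraries when all match types were counted. The leaders depend on this choice: with reads identical to a mature entry only, miR-30b led in 7 libraries, with 47.2% in ovary to 72.8% in eye, miR-30d led in testis with 46.2%, and miR-30c held at most 5.45%. This filter drops the leading sequences of miR-30c-5p form A and miR-30e-5p, which extend a zebrafish entry, but keeps that of miR-30b-5p. When reads were regrouped by sequence form rather than by name, all 32 shares of the 4 members stayed within their intervals. Those of miR-30b, miR-30c and miR-30d did not change, because each of their forms held reads of a single name. For these members the regrouping is therefore no check on the naming.

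**Figure D2:**
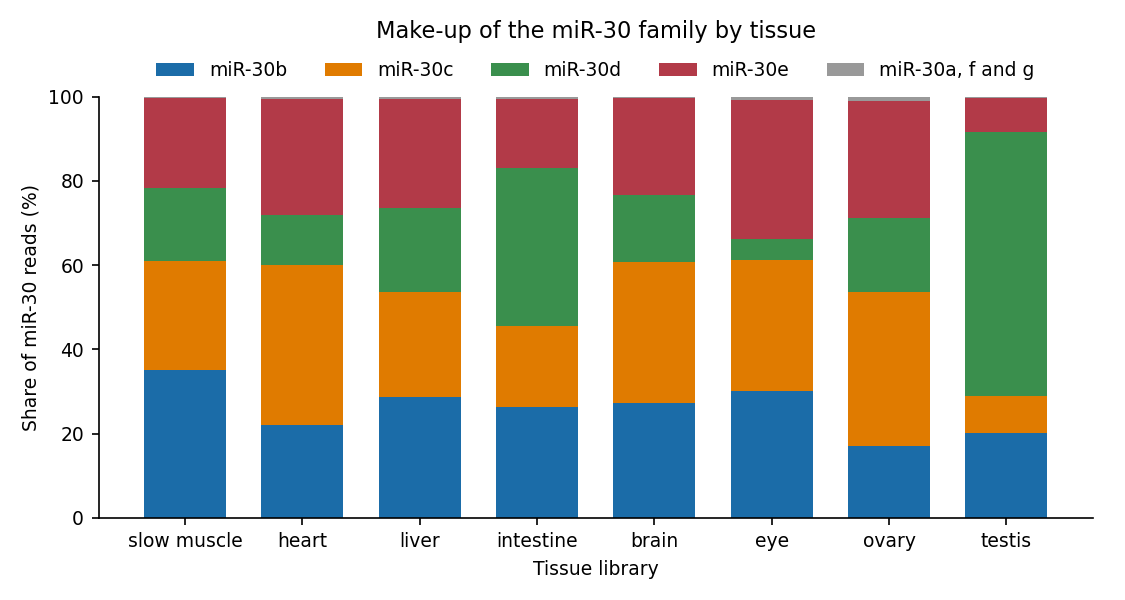
Share of each member in the miR-30 reads (%) of the 8 libraries, as stacked bars that include every arm and match type. miR-30d fills 62.5% of the testis bar and 4.95% of the eye bar, and miR-30b, miR-30c or miR-30e leads in 6 of the libraries.

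The names of the rare members did not always follow the sequence. Of 340 reads recorded as miR-30a-3p, 336 had one of the miR-30e-3p sequences, 147 of form A and 189 of form B. All 38 reads recorded as miR-30c-3p, under a medaka entry, contained the start of the miR-30c-5p sequence. Thus the 3p arm of miR-30a is not separable from that of miR-30e in these data.

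Both arms of miR-30e were annotated, and their balance differed strongly between tissues. By name, the 3p arm held 38.1% of miR-30e arm reads in intestine (36.2–40.1), 30.7% in ovary (27.6–34.1), 25.1% in eye (22.3–28.1), 22.0% in heart (20.8–23.2), 19.8% in testis (13.2–28.6), 10.8% in slow muscle (9.91–11.7), 10.1% in liver (8.94–11.4) and 2.41% in brain (1.88–3.09). Intestine was highest, with an interval apart from that of every other library. Brain was lowest, with 60 reads of miR-30e-3p against 2429 reads of miR-30e-5p.

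Expressed as ratios, miR-30e-5p exceeded miR-30e-3p by 1.62-fold in intestine (1.49–1.77) and by 40.5-fold in brain (31.3–53.2). The 5p arm was the more abundant in all 8 libraries. Arms were also assigned by sequence form, which adds the reads recorded as miR-30a-3p and overlapping precursor-only reads. Which gene the former come from was not tested. The 3p share was then 40.9% in intestine and 4.22% in brain, and the extremes stayed in the same libraries. By sequence form the 5p to 3p ratio was 1.44-fold in intestine (1.33–1.57) and 22.7-fold in brain (18.7–27.8). The brain interval lay wholly below that found by name.

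For comparison, the range of the 3p share over tissues was taken for all 11 miRNA names with at least 100 reads of each arm and at least 100 reads in each of 6 or more libraries. The median range was 11.7 percentage points and that of miR-30e was 35.7 points, wider than in 9 of the other names. Of the 11 names, 4 had their lowest 3p share in brain. This is a description over names, with no test.

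For the other members the opposite arm was seen only as precursor matches, and its share was small. It held 2.44% (testis) to 12.1% (eye) of the miR-30d reads in these forms. It held 0.214% (slow muscle) to 1.42% (liver) of those of miR-30b. For miR-30c it held 6.93% in intestine (upper bound 7.95%) and at most 2.16% in the other libraries, with 0 of 110 reads in testis, which allows a share of up to 2.73% if 3 reads are taken as the limit (Wilson upper bound 3.37%). Intestine was thus the library with the highest opposite-arm share for both miR-30c and miR-30e. The miR-30c shares count both 5p forms, mostly form A, whereas the opposite-arm form was recorded under a torafugu entry, as was form B. Intestine held 189 opposite-arm reads and 152 form B reads, and all libraries together held 439 and 948. Which 5p form shares a hairpin with the opposite-arm form was not tested. Reads that the study annotated under its looser later criteria were not used here. These shares therefore hold only for the stricter annotation, which also includes extended, shortened and precursor-only matches.

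**Figure D3:**
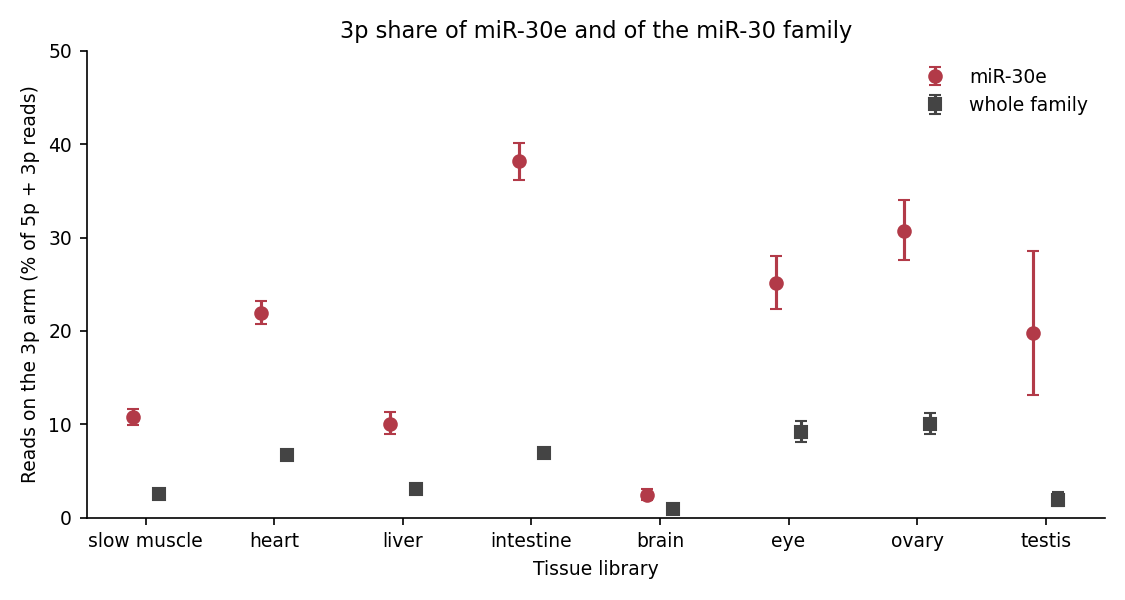
Share of 3p reads (% of 5p and 3p reads, by annotated name) for miR-30e and for the whole family in the 8 libraries, with 95% Wilson intervals. For miR-30e the share runs from 2.41% in brain to 38.1% in intestine, and for the family from 0.927% in brain to 10.01% in ovary.

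The forms that differ by 1 base were also used unequally. Form A of miR-30e-3p held 73.9% of the reads of both 3p forms in heart (71.3–76.4) and 29.6% in ovary (24.5–35.3). The remaining libraries lay between 43.0% in brain and 57.6% in liver. Form B of miR-30c-5p was the minor form everywhere, with 2.20% of both forms in heart (1.86–2.61) and 8.32% in ovary (6.73–10.3). Heart and ovary therefore held the extreme values for both pairs of forms, but not always beyond counting error. For form B, the ovary interval overlapped that of intestine (5.28–7.18), and that of testis (1.48–9.30) overlapped both extremes. For miR-30e-3p, the testis interval (35.1–72.1) overlapped those of heart and ovary, and the brain interval (34.0–52.5) overlapped that of ovary.

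The 5′ start sets the seed, and it was less fixed in miR-30e-5p than in the other 5p forms. Of its reads, 5.45% (816 of 14983) started 1 nt downstream, against 0.564% for miR-30b-5p, 0.733% for miR-30c-5p form A and 0.508% for miR-30d-5p. The share in miR-30e-5p was 8.19% in liver (7.10–9.43), 8.06% in ovary, 7.47% in intestine, 6.23% in eye, 5.35% in brain, 4.84% in heart, 3.70% in testis (3 of 81 reads) and 3.51% in slow muscle (3.003–4.11). The leading shifted sequence, with 486 reads, is shown because its seed becomes TAAACAT.
miR-30e-5p, start 1 nt downstream: gTAAACATccttgactggaagc

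In each of the 6 somatic libraries and in ovary, the shifted share of miR-30e-5p was higher than that of the other 3 forms. The intervals overlapped in testis, with 81 reads of miR-30e-5p, and in eye, where miR-30d-5p had 116 reads and a share of 0.862% (0.152–4.72) against 6.23% (4.63–8.34) for miR-30e-5p.

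**Figure D4:**
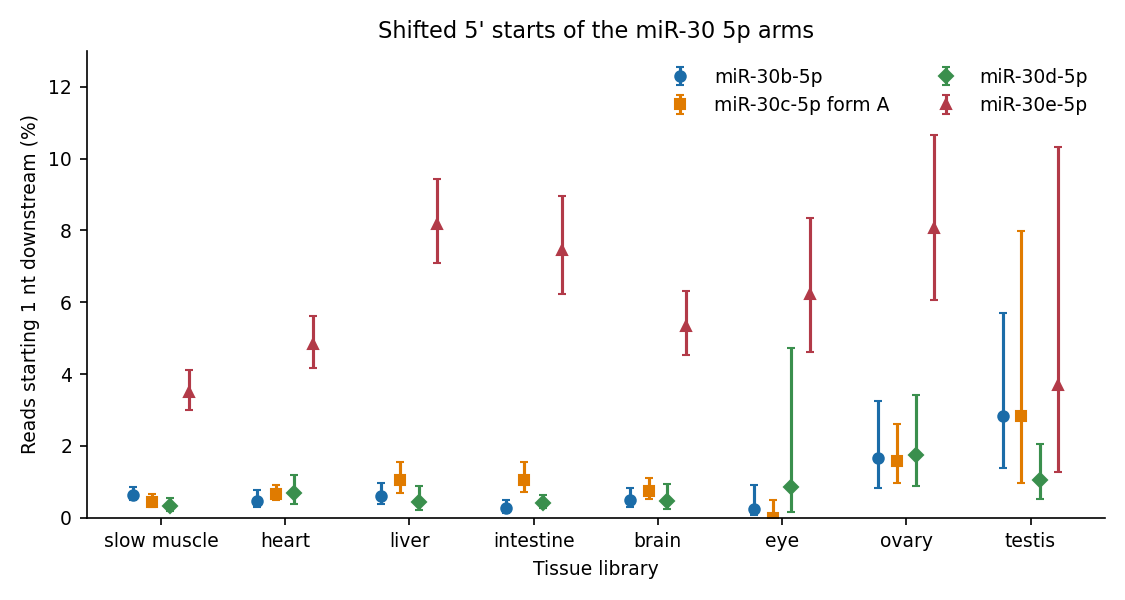
Share of reads (%) that start 1 nt downstream of the leading 5′ start for the 4 abundant 5p forms in each library, with 95% Wilson intervals. miR-30e-5p lies at 3.51–8.19% and its points stand above those of the other forms in all libraries, with overlapping intervals in testis and, against miR-30d-5p, in eye.

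The 3′ ends varied more than the starts, and with tissue. miR-30b-5p ended at position 22 in 90.8% of its reads, but in 69.7% in ovary and 72.6% in testis. miR-30c-5p form A ended most often at position 23 in ovary (69.9%), testis (68.9%), liver (62.9%), eye (49.9%) and heart (48.6%), and at position 24 in brain (50.2%), slow muscle (49.0%) and intestine (47.6%). Position 23 thus held a larger share in the gonads and liver than in the other libraries.

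For miR-30e-5p the most frequent end was position 23 in all somatic libraries (46.7–54.0%) and position 24 in ovary (25.8%) and testis (37.0%). miR-30d-5p ended most often at position 22, except in eye, where 54.3% of 116 reads ended at position 24, and in testis, where 33.3% ended at position 21. The most frequent end therefore moved differently between members.

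The share of short reads was also high in the gonads, by a limit of position 21 that was chosen after the values were seen. Ends at position 21 or before made up 39.6% of miR-30e-5p reads in ovary (35.5–43.7) and 29.6% in testis (20.8–40.3), against 7.33–16.9% in the somatic libraries. For miR-30b-5p they made up 19.5% in ovary and 16.5% in testis, against 2.41–7.79%. For miR-30d-5p they made up 33.8% in ovary (29.7–38.3) and 37.0% in testis, against 14.0–26.1%. For this arm the ovary interval overlapped that of eye (15.8–30.8, with 116 reads). Both gonads were thus above every somatic library for these 3 arms, whereas for miR-30c-5p form A ovary held 16.4% and testis 9.43%, against 3.19–14.5%, so that testis lay within the somatic range. The 135 reads ending at position 18 fit both miR-30b-5p and miR-30c-5p and were all counted as miR-30b-5p. The part of this rule in the contrast between these arms was not tested.

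Slow muscle and heart, the striated muscles analysed here, were compared arm by arm. An arm was called where the whole interval of the RPM ratio lay past 1.5-fold, among names with at least 100 RPM in either library. miR-30b-5p was 2.92-fold (2.81–3.04), miR-30d-5p 2.80-fold (2.65–2.97) and miR-30e-5p 1.66-fold (1.59–1.74) higher in slow muscle. miR-30c-5p was 1.27-fold higher in slow muscle (1.23–1.32) and miR-30e-3p 1.41-fold higher in heart (1.26–1.57), and neither was called. The paper's own profile lists miR-30e-3p among its top miRNAs higher in heart than in slow muscle, at a much larger ratio. Here this arm measured 378 RPM in heart and 269 RPM in slow muscle. The paper gives a similar level in slow muscle and a much higher one in heart. Reads annotated under its looser later criteria were not used here, and their part in this gap was not tested.

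Thus 3 of 5 miR-30 arms were called higher in slow muscle, against 26.5% of all 136 names, and 0 of 5 were called higher in heart, against 39% of them. In either direction the share was 3 of 5, against 65.4% of all names. Regrouped by sequence form, 5 forms were called, 4 of them higher in slow muscle and 1, miR-30e-3p form A, 1.96-fold higher in heart (1.72–2.24). Forms divide arms, and no share over all miRNAs was computed for forms, so this count has no background and is not comparable with that of arms. The median ratio of slow muscle to heart was 1.66 for the 5 arms and 0.809 for all names. Erythroid markers (miR-451 and miR-144, 2 of 2 with reads) summed to 31566 RPM in heart and 9690 RPM in slow muscle. The striated muscle markers (miR-1, miR-133, miR-206 and miR-499, 4 of 4) summed to 59829 and 145058 RPM. Among them miR-206 measured 40.9 RPM in heart and 34809 RPM in slow muscle. Only miR-499 went the other way, with 8833 RPM in heart and 4111 RPM in slow muscle. The part of these markers in the ratios was not tested. Per annotated read, miR-30e-5p was 1.54-fold higher in slow muscle and was no longer called.

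Ovary and testis had nearly equal family levels in RPM but differed in members. With 1 library each from fish of different sex, tissue and individual cannot be told apart in this comparison. The family was 2.58-fold higher in testis with TMM factors, 3.87-fold with DESeq2 size factors and 4.33-fold per annotated read. In RPM, miR-30c-5p was 4.12-fold higher in ovary (3.38–5.07), but this fell to 1.58-fold with TMM factors, 1.05-fold with DESeq2 size factors and 0.942-fold per annotated read. In RPM, miR-30e-5p was 2.99-fold higher in ovary (2.36–3.82), against 1.15-fold, 0.763-fold and 0.683-fold on the same scales. miR-30d-5p was 3.73-fold higher in testis in RPM (3.32–4.20), and 9.73-fold, 14.6-fold and 16.3-fold higher on them. The direction of miR-30d-5p was thus the same on all 4 scales, and those of the former arms were not.

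The RPM ratio of ovary to testis for miR-30b-5p was 0.863 (0.739–1.01) and was not called. On the other scales this arm was also higher in testis, by 3.02-fold with TMM factors, 4.54-fold with DESeq2 size factors and 5.07-fold per annotated read. In RPM, 2 of the 4 arms tested were called higher in ovary, against 75.8% of 66 names, and 1 was called higher in testis, against 10.6% of them. In either direction it was 3 of 4, against 86.4% of all names. The median ratio of ovary to testis was 1.93 for the miR-30 arms and 4.41 for all names. The other scales lowered all log2 ratios by 1.38 with TMM, 1.97 with DESeq2 size factors and 2.13 per annotated read. Within the family, where no scaling enters, miR-30d held 62.5% in testis and 17.5% in ovary.

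**Figure D5:**
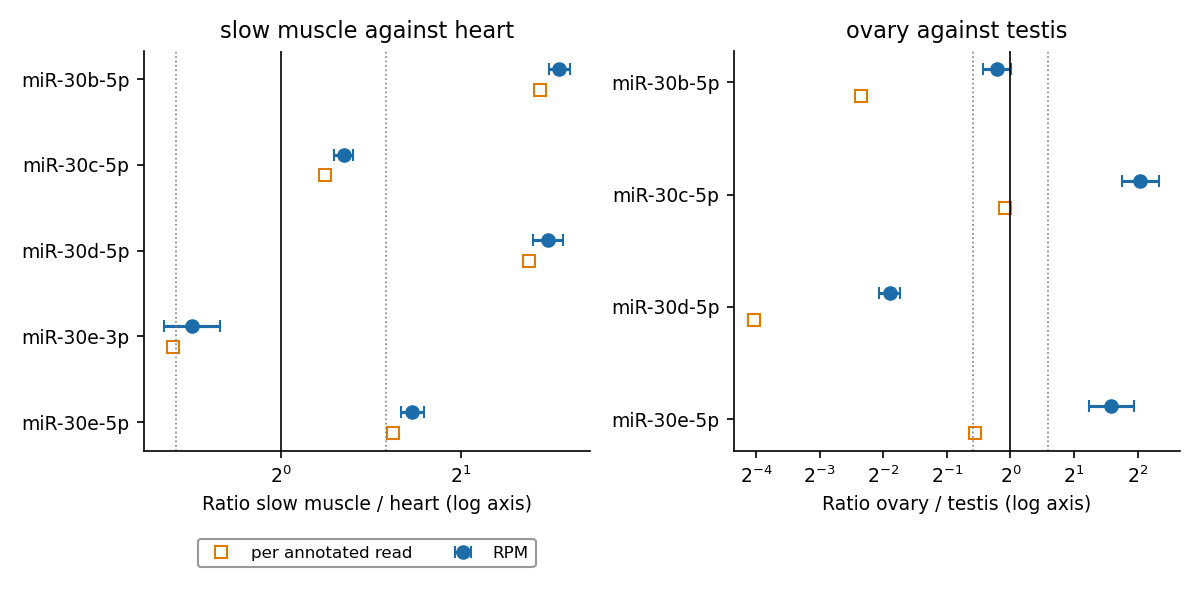
Ratios of the miR-30 arms between slow muscle and heart and between ovary and testis (log axes) for arms with at least 100 RPM in either library. Circles with 95% Clopper-Pearson intervals are RPM ratios, open squares are ratios per annotated read, dotted lines mark 1.5-fold, and the ovary to testis ratio of miR-30c-5p moves from 4.12 in RPM to 0.942 per annotated read.

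The gonads were compared with the 6 somatic libraries as a group. The family averaged 594 RPM in the gonads and 6017 RPM in the somatic tissues, a difference of -5423 RPM (two-sided exact permutation test over 28 splits, p = 0.107, with 0.0357 as the smallest p the design allows). Both gonads lay below every somatic library in RPM, but on all 3 other scales testis lay above several somatic libraries. The gonad and somatic means were 2276 and 3814 with TMM factors (exact permutation p = 0.357), 2943 and 3766 with DESeq2 size factors (exact permutation p = 0.679), and 14086 and 16704 per 1000000 annotated reads (exact permutation p = 0.75). In RPM, 3 of 5 miR-30 arms, the 5p arms of miR-30b, miR-30c and miR-30e, were lower in both gonads than in every somatic library, against 45.6% of 215 names, and 0 of 5 were higher in both, against 1.86%. Per annotated read, 0 of 5 were lower in both gonads, against 14% of names, and 0 of 5 were higher, against 6.98%.

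The share of 3p reads in the family differed by 1.04 percentage points between gonads and somatic tissues (exact permutation p = 0.679), with ovary at 10.01% and testis at 1.88%, and by -3.02 points without ovary. The share of annotated reads differed by -0.262 points (exact permutation p = 0.75), and by 0.0288 points without slow muscle and 0.618 points without ovary. Endothelial miR-126 measured 2544 RPM in ovary and 813 RPM in testis, against 6525–57432 RPM in the somatic libraries. The erythroid markers summed to 2483 RPM in ovary and 187 RPM in testis, against 918–31566 RPM. Leukocyte markers (miR-223 and miR-142) summed to 2982 and 234 RPM, against 1366–4673 RPM. Smooth muscle markers (miR-143 and miR-145) summed to 67033 and 7529 RPM, against 9401–59413 RPM. Ovary thus lay within the somatic range for the erythroid and leukocyte sums and above it for the smooth muscle sum. The latter was mostly miR-145, with 65951 RPM in ovary. miR-143 alone lay within the somatic range, with 1082 RPM in ovary and 1110 RPM in intestine. The part of these cells in the difference in RPM was not tested.

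The miRNAs whose levels were most like those of the family over the 8 libraries were sought among 210 other names that reached 100 RPM in any library. They were miR-26b-5p (Pearson's r = 0.958 on the log2(RPM + 1) scale), miR-222-3p (0.930), precursor-only reads of miR-126 (0.924), miR-26-5p (0.923) and miR-126a-3p (0.909). All 5 were lowest in testis, where the family was not below ovary by more than counting error. These names were picked by likeness over the same libraries, so a shared low library is no separate finding. Per annotated read, r was 0.867, 0.601, 0.449, 0.373 and 0.657 in the same order. The points share library depth, so these values are a description over 8 tissues.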

How the data were processed

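Each tissue was measured as 1 SOLiD small RNA library. Low-quality reads and adaptors were removed by the authors, who kept sequences of 18–25 nt and assigned them to miRBase entries in CLC genomics workbench. For each distinct sequence, the deposited files give an unnormalized read count, and repeated header lines were skipped. Aligned genome positions were not used here.

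Counts were summed by member and arm, with precursor-only reads kept apart. RPM used the 18–25 nt read totals of the study's supplementary table, since the files hold only annotated reads. Shares carry Wilson intervals and ratios of libraries exact Clopper-Pearson intervals (95%). Depth ranged from 54540 to 1207961 annotated reads. Samples were grouped by tissue label, and gonads (2) were compared with somatic libraries (6) by two-sided exact permutation tests. Forms were built by overlaps of at least 16 nt with 0 mismatches and shifts of up to 4 nt. A sequence that fit several forms went to the one with the most abundant leading sequence. Duplexes were computed with ViennaRNA 2.7.2. Alternatives included edgeR 4.0.16 TMM factors, DESeq2 1.42.0 size factors, other denominators, match types and filters. Other tools were Python 3.11.15, numpy 2.4.6, scipy 1.17.1, pandas 2.3.3, matplotlib 3.10.9 and R 4.3.3. The calling of ratios was tested on simulated data.

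The text names every member and arm, the leading sequence of each form with at least 100 reads, and the 5 other names with the highest correlation with the family. Members, marker lists and tests were chosen with earlier results of these data known. Fast muscle, putative miRNAs, reads annotated under later criteria and quantitative PCR were not analysed here.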

Additional observations from a re-analysis of the deposited data

How the results depend on the processing

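The level of the family in gonads against somatic tissues kept its negative direction under every alternative run. The difference was -5423 in RPM, -1538 with TMM factors (exact permutation p = 0.357), -823 with DESeq2 size factors (exact permutation p = 0.679) and -2618 per 1000000 annotated reads (exact permutation p = 0.75). These scales have unlike units, so the sizes of the differences are not comparable. Leaving out 1 library at a time gave differences of -6242 to -4274 RPM (exact permutation p from 0.0952 to 0.286), -3.02 to 5.10 percentage points for the 3p share and -1.14 to 0.618 points for the share of annotated reads. The 3p share turned to -3.02 points without ovary, and the share of annotated reads to 0.0288 points without slow muscle and 0.618 without ovary. Assigning arms by sequence form, chosen after seeing the data, gave 0.927 points for the 3p share. Against 3 called arms in each pair, regrouping by sequence form called 5 forms between slow muscle and heart, 1 of them higher in heart, and for ovary against testis no minimum RPM called 6. Counts of forms and of arms have unlike units. Reads identical to a mature entry gave 0 calls for ovary against testis because no arm then reached 100 RPM, so that nothing was tested. Scaling of single arms was added after seeing the data: the log2 ratio of ovary to testis became -0.0864 (miR-30c-5p) and -0.551 (miR-30e-5p) per annotated read and -0.391 (miR-30e-5p) with DESeq2 size factors, and the direction of no arm turned between slow muscle and heart. With reads identical to a mature entry only, 29 of 32 member shares moved beyond their intervals and miR-30b led in 7 libraries. The 5p to 3p ratio of miR-30e moved in 1 of 8 libraries when overlapping precursor reads were added. With arms assigned by sequence form, which adds reads recorded as miR-30a-3p and precursor-only reads, this ratio was 22.7 in brain, against 40.5 by name. No paired analysis was possible because each tissue has 1 library and the labels do not tie libraries to the individual fish. Precision is lowest in testis, with 1248 family reads.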

Other observations

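The family reads came under entries of several species, with 49.8% under torafugu, 46.0% under zebrafish and 2.31% under human entries. Reads identical to a mature 5p entry made up 37.8% of the family, and reads that extend such an entry 45.2%. The rarest names were miR-30a-5p with 32 reads, miR-30f-5p with 16 and miR-30g with 2. Precursor-only reads numbered 1634, of which 834 were of miR-30d, 456 of miR-30c, 201 of miR-30e and 141 of miR-30b, and 218 of them overlapped an annotated arm of the same member.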
